A study of Bos taurus with 14 samples.

Results

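The interferon response genes of the bovine conceptus on Day 15 were examined: the receptor chains IFNAR1 and IFNAR2, the transducers and regulators STAT2, IRF1, IRF7 and IRF9, and the targets ISG15, MX1 and MX2. A probe set was taken when the platform annotation gave it a single gene symbol and that symbol was one of these 9 genes. The rule found 10 probe sets for 8 genes, of 24016 probe sets and 9155 named genes on the array: 3 probe sets for IRF7 (A, B and C, from the highest to the lowest mean) and 1 for each of the others. No probe set was found by this rule for IRF1, which was not analysed here.

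Type I interferons bind a receptor made of IFNAR1 and IFNAR2, which starts phosphorylation of STAT2. STAT2 acts with IRF9 in the nucleus to switch on target genes such as ISG15, MX1, MX2 and IRF7. In ruminants the trophoblast of the elongating conceptus itself secretes a type I interferon, interferon tau, which signals pregnancy to the mother, and its targets are best known from the endometrium and from maternal blood cells. The genes were measured here on the other side of that signal, in the conceptus that makes it.

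RNA of 14 whole conceptuses was hybridised, 1 array each, and the deposited values were log2 expression values. All embryos were Holstein, sired by 1 bull, recovered from superovulated donor cows on Day 6.5, graded by morphology and transferred 2 to 6 at a time into Holstein heifers until flushing on Day 15. The groups were Grade 1 long (5 conceptuses, 1 male and 4 female), Grade 1 short (5, 2 male and 3 female), 1 male Grade 1 conceptus with no length, and Grade 3 (3, 2 male and 1 female, with no length). Conceptuses from the same heifer or donor cow cannot be picked out from the labels, so p-values measure only the spread between these conceptuses.

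Array medians lay between 5.62 and 5.72, and correlations between arrays lay between 0.984 and 0.997. The mean of 5 trophoblast markers lay between 10.78 and 11.26 over the conceptuses, and these markers differed widely in level. The keratin KRT18 and the trophoblast Kunitz protein TKDP1 lay at 13.91 or above in every conceptus. PAG2 read between 12.48 and 14.18, ELF5 between 6.20 and 7.19, and the keratin KRT8 between 5.33 and 6.36. The mean of 8 endometrial markers lay between 4.16 and 4.58, and that of 16 blood and immune markers between 4.59 and 4.86; 5 genes of each of these lists had a mean under 4. In whole conceptuses, fewer cells of a type and less RNA per cell cannot be told apart.

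Some conceptuses stood apart. Grade 1 short replicate 1 is long by its source name and short by its length characteristic, and the latter was used. Short replicates 4 and 5 lay lowest on the first principal component, which held 28.8 percent of the variance. Results that turn on these conceptuses are given with and without them.

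The ligand was the brightest signal on the array. IFNT2 belongs to the interferon tau family, whose near-identical copies a probe set can report together, and its probe set had a mean of 14.53 ± 0.07 (SD, n = 14), and 0 probe sets had a higher one. Its values spanned 0.24 log2 units, 14.37 in short replicate 5 to 14.61 in long replicate 1, which was also the highest value in the table. It stood at 14.58 ± 0.02 (SD, n = 5) in long, 14.48 ± 0.08 (SD, n = 5) in short and 14.51 ± 0.05 (SD, n = 3) in Grade 3 conceptuses. Long minus short was 0.10 ± 0.06 (SE, limma, Benjamini-Hochberg adjusted p = 0.363), a difference that did not pass the threshold of 0.05. Whether this probe set was saturated was not tested.

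The genes of the response lay lower on the same scale. ISG15 had a mean of 5.06 over the 14 conceptuses, above 42.5 percent of all probe sets, MX1 3.65 (above 20.4 percent) and MX2 3.42 (above 15.9 percent). The receptor chains lay at 3.33 for IFNAR1 (13.7 percent) and 4.02 for IFNAR2 (27.1 percent). STAT2 at 6.69 (60.6 percent), IRF9 at 6.26 (56.4 percent) and IRF7 probe set A at 7.97 (72.5 percent) lay above the middle. Probe sets differ in how brightly they report the same amount of RNA, so these positions give no order of abundance between genes. MX1, MX2 and IFNAR1 had means under 4, as did 26.8 percent of all probe sets. No detection calls were used here, so how much of these 3 low signals is background was not tested.

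**Figure D1:**
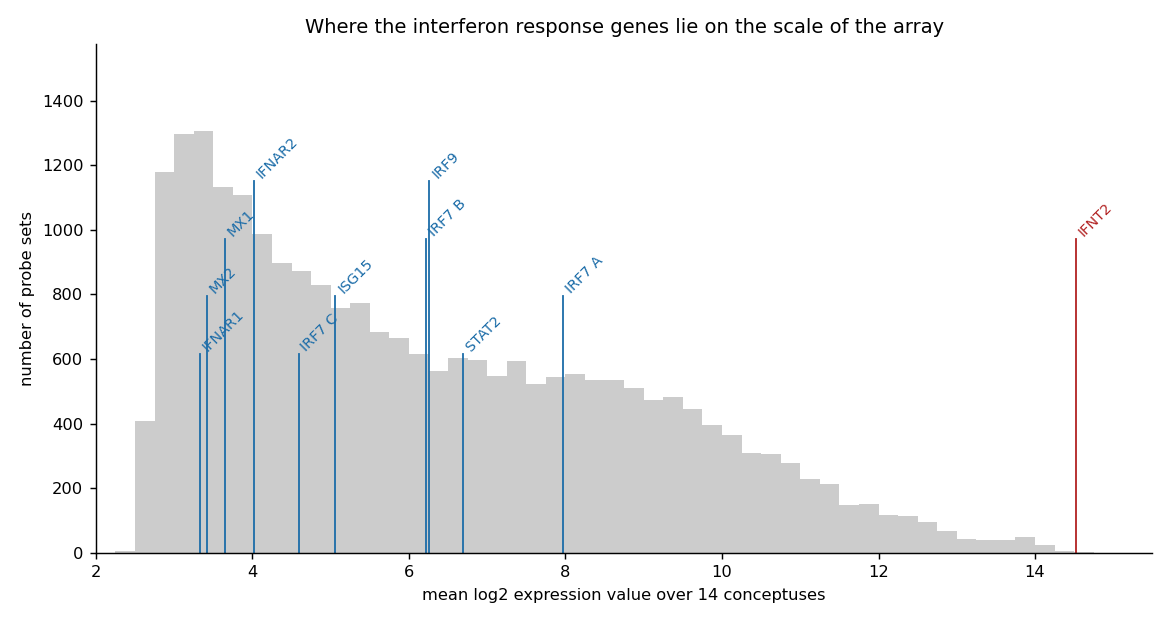
Number of probe sets (vertical axis) by mean log2 expression value over 14 conceptuses (horizontal axis), with blue lines at the 10 probe sets of the interferon response genes and a red line at IFNT2; line heights only separate the labels. IFNT2 lies at 14.53 at the far right, MX1, MX2 and IFNAR1 lie under 4, and IRF7 probe set A lies at 7.97.

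The spread of the response genes between conceptuses was small on the log2 scale, as it was for most probe sets. The SD over the 14 conceptuses lay between 0.09 for IRF7 probe set B and 0.26 for STAT2, against a median of 0.15 over all probe sets, and 4 of the 10 lay below that median. STAT2 had a larger SD than 85.5 percent of probe sets and IRF7 probe set B than 9.29 percent. From the lowest to the highest conceptus, ISG15 spanned 1.60 fold, MX1 1.45 fold, MX2 1.30 fold, STAT2 1.72 fold and IRF9 1.70 fold.

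**Figure D2:**
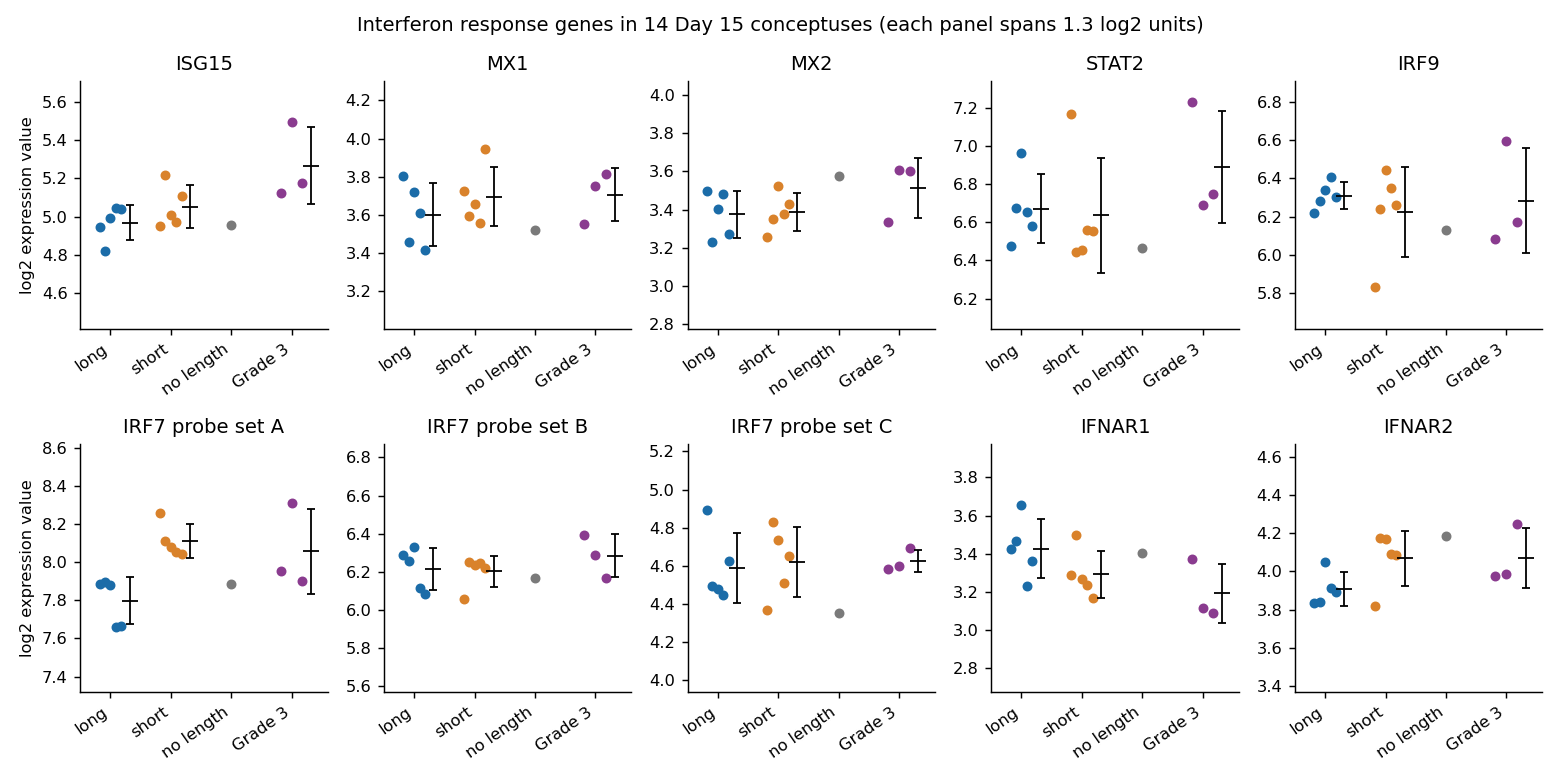
Log2 expression value (vertical axis) of each of the 10 probe sets in every conceptus (points) by group, with the mean and SD of each group of 3 or more beside the points; every panel spans the same 1.3 log2 units at its own level. IRF7 probe set A is the panel in which long and short conceptuses do not overlap, ISG15 is highest in a Grade 3 conceptus at 5.50, and short replicate 1 lies apart from the other short conceptuses for STAT2 and IFNAR2.

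Between long and short Grade 1 conceptuses, the comparison of the second experiment in the design, 1 of the 10 probe sets passed the threshold: IRF7 probe set A was lower in long conceptuses. Of all 24016 probe sets, 6.57 percent were called in this comparison and 3.87 percent were called lower in long, so 1 of 10 is a share near that of the array. The same was the 1 probe set with an unadjusted p under 0.05, against 22 percent of all. The other 9 probe sets differed by between -0.16 and 0.13, and their 95% intervals all included 0. Over the 10, the median difference was -0.02, the same as over all probe sets.

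The receptor chains bind interferon at the cell surface. IFNAR1 read 3.42, 3.47, 3.66, 3.23 and 3.36 in long replicates 1 to 5, and 3.29, 3.50, 3.27, 3.24 and 3.17 in the short ones. The ranges overlapped, and long minus short was 0.13 ± 0.09 (SE, 95% interval -0.06 to 0.33, limma adjusted p = 0.421). IFNAR2, the chain whose inner tail holds STAT2, read 3.84, 3.84, 4.05, 3.92 and 3.89 in long replicates 1 to 5, and 3.82, 4.18, 4.17, 4.09 and 4.09 in the short ones. Of the short conceptuses, 4 lay above every long one, and short replicate 1 lay below every long one. The difference was -0.16 ± 0.08 (SE, 95% interval -0.34 to 0.01, limma adjusted p = 0.264). Alternatives included fits without short replicate 1 and with it counted as long. Over all 19 of them the difference lay between -0.238 and -0.135, with limma adjusted p between 0.0659 and 0.529. In the gene table IFNAR1 and IFNAR2 lie on 1 chromosome with 3 genes between them. The only protein-coding one, IL10RB, a chain of the receptors for interferon lambda and interleukin 10, had a difference of 0.28 ± 0.08 (SE, limma adjusted p = 0.0604).

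STAT2, which carries the signal from the receptor, read 6.47, 6.68, 6.96, 6.66 and 6.58 in the long conceptuses and 7.17, 6.44, 6.46, 6.56 and 6.55 in the short ones. Short replicate 1 was the highest of the 11 Grade 1 conceptuses, and the other 4 short conceptuses lay within the range of the long ones or just below it. Long minus short was 0.03 ± 0.14 (SE, 95% interval -0.27 to 0.34, limma adjusted p = 0.924), and without short replicate 1 it was 0.17 (limma adjusted p = 0.319). IRF9, the DNA-binding partner of STAT2, read 6.22, 6.28, 6.34, 6.40 and 6.30 in long and 5.83, 6.24, 6.44, 6.35 and 6.26 in short conceptuses. Here short replicate 1 was the lowest of all 14, and the rest overlapped. The difference was 0.09 ± 0.10 (SE, 95% interval -0.14 to 0.31, limma adjusted p = 0.695), and without short replicate 1 it was -0.01 (limma adjusted p = 0.936).

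IRF7 is a factor that drives further type I interferon production and is itself an interferon target. Its probe set A read 7.89, 7.90, 7.88, 7.66 and 7.67 in long replicates 1 to 5, and 8.26, 8.11, 8.08, 8.05 and 8.04 in short replicates 1 to 5. Every short conceptus lay above every long one, which held for 5.52 percent of all probe sets, and the gap between the groups, 7.90 to 8.04, was narrower than the range within either group. Means were 7.80 ± 0.12 (SD, n = 5) in long and 8.11 ± 0.09 (SD, n = 5) in short, so the level in long was lower, with a difference of -0.31 ± 0.07 (SE, 1.24 fold, 95% interval -0.47 to -0.15, limma, Benjamini-Hochberg adjusted p = 0.0329).

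The other probe sets of IRF7 did not show this difference. Probe set B read between 6.08 and 6.33 in long and between 6.06 and 6.25 in short conceptuses, with a difference of 0.01 ± 0.07 (SE, 95% interval -0.14 to 0.17, limma adjusted p = 0.949). Probe set C read between 4.45 and 4.90 in long and between 4.37 and 4.83 in short conceptuses, with a difference of -0.03 ± 0.11 (SE, 95% interval -0.27 to 0.21, limma adjusted p = 0.917). The 95% intervals of probe sets A and B did not overlap, and those of A and C did. The difference between probe sets was not tested, and which part of the transcript each one reads was not analysed here.

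The call for IRF7 probe set A was not kept in every fit. It was kept without short replicate 1 (-0.28, limma adjusted p = 0.0491) and without long replicate 3 (-0.33, adjusted p = 0.0419). It was lost in the other 8 of 10 fits that left out 1 conceptus, with adjusted p up to 0.0807 (without long replicate 5), and in each of them the difference lay between -0.34 and -0.28. It was also lost without short replicates 4 and 5 together (-0.35, adjusted p = 0.117) and with the conceptus of conflicting labels counted as long (-0.20, adjusted p = 0.317). Sample titles carry 7 prefixes of unstated meaning, of which 2 hold both lengths. In the one with 2 long and 1 short conceptus the difference was -0.22, in the one with 1 long and 2 short it was -0.19, and with the prefix as a fixed block it was -0.21 (limma adjusted p = 0.239). With the prefix as a random block the difference was -0.30 and the call was kept (limma adjusted p = 0.0328). Of all 19 alternatives, 8 kept the call and 11 lost it.

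The targets showed no difference with length that passed the test. ISG15, a ubiquitin-like protein that is conjugated to other proteins, read 4.95, 4.82, 4.99, 5.05 and 5.04 in long and 4.95, 5.22, 5.01, 4.97 and 5.11 in short conceptuses. The ranges overlapped in part, and long minus short was -0.08 ± 0.07 (SE, 95% interval -0.24 to 0.08, limma adjusted p = 0.568). Within the title prefixes it was -0.34 (2 long, 1 short) and 0.00 (1 long, 2 short). MX1 and MX2, which encode antiviral dynamin-like GTPases and lie next to each other in the gene table with 0 genes between them, differed by -0.09 ± 0.10 (SE, limma adjusted p = 0.633) and -0.01 ± 0.08 (SE, limma adjusted p = 0.959). MX1 read between 3.42 and 3.80 in long and between 3.56 and 3.95 in short conceptuses, and MX2 between 3.23 and 3.50 and between 3.26 and 3.52.

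**Figure D3:**
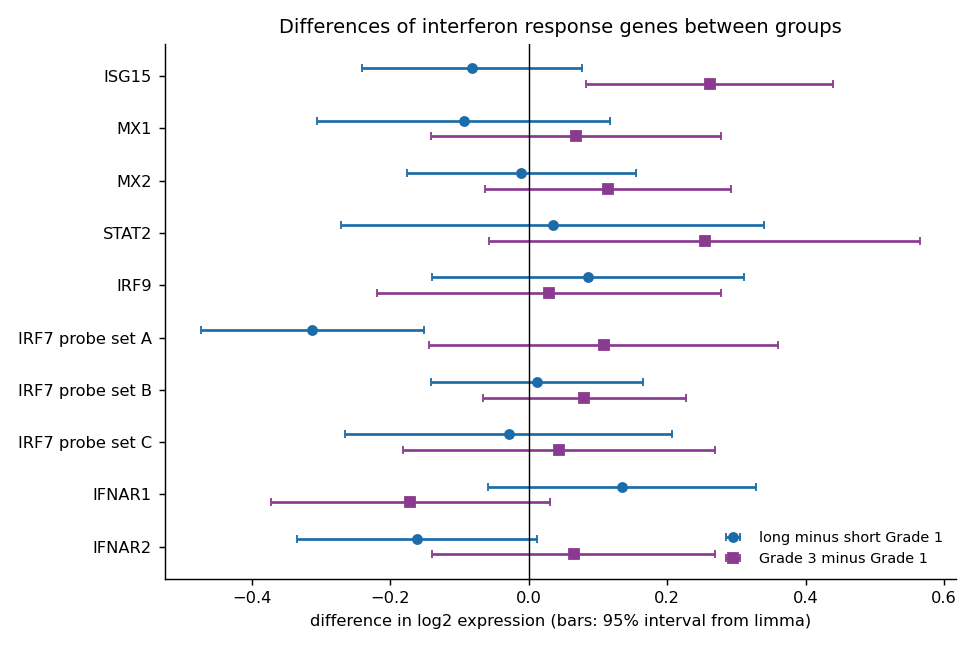
Difference in log2 expression (horizontal axis) of each probe set, long minus short Grade 1 (circles, 5 and 5 conceptuses) and Grade 3 minus Grade 1 (squares, 3 and 11), with 95% intervals from limma not adjusted for the number of probe sets. The interval of IRF7 probe set A for length (-0.47 to -0.15) and that of ISG15 for grade (0.08 to 0.44) leave out 0, and the others include it.

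Grade 3 embryos were those of poorer morphology. Against the 11 Grade 1 conceptuses, 9 of the 10 probe sets had a higher mean in Grade 3 (50.9 percent of all probe sets) and 1 a lower one. None of these differences passed limma's adjusted threshold, which 0 percent of all probe sets passed, and 1 of the 10 had an unadjusted p under 0.05, as did 5.06 percent of all probe sets. The median difference was 0.07 over the 10 probe sets and 0.00 over all. The largest 95% half-width among them was 0.31 log2 units, for STAT2. The 10 probe sets are not independent, as 3 belong to IRF7. Grade 3 replicate 2 was the highest of all 14 conceptuses for ISG15, MX2, IRF9 and IRF7 probe set A.

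ISG15 had the largest difference with grade. It read 5.12, 5.50 and 5.18 in Grade 3 replicates 1 to 3, and between 4.82 and 5.22, with a median of 4.99, in the 11 Grade 1 conceptuses. All 3 Grade 3 values lay in the upper part of the range, but 1 short Grade 1 conceptus, at 5.22, lay above Grade 3 replicates 1 and 3. Grade 3 minus Grade 1 was 0.26 ± 0.08 (SE, 1.20 fold, 95% interval 0.08 to 0.44, limma adjusted p = 0.872). Without Grade 3 replicate 2 the difference was 0.15 (limma adjusted p = 0.998). Of the title prefixes, 0 hold both grades, so prefix and grade cannot be told apart.

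That conceptus, Grade 3 replicate 2, was also the highest of all 14 in other genes, which were chosen after their values were seen. IFI6, a mitochondrial interferon target, read 5.02 there and between 4.17 and 4.65 in the other 13 conceptuses. LTF, the lactoferrin gene from the list of endometrial markers, read 4.81 there and between 3.42 and 4.16 in the others. That list went both ways with grade. Grade 3 minus Grade 1 was 0.29 for LTF, 0.19 for PAX8, 0.10 for OXTR, 0.08 for PGR and 0.01 for ESR1. It was -0.04 for MUC1, -0.08 for SERPINA14 and -0.08 for OVGP1, and none passed limma's adjusted threshold. The mean of the 8 endometrial markers lay between 4.33 and 4.58 in Grade 3 and between 4.16 and 4.47 in Grade 1, and that of the blood and immune markers between 4.73 and 4.86 and between 4.59 and 4.84. Their part in the ISG15 values was not tested.

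Among the other genes, STAT2 was 0.25 ± 0.15 (SE) higher in Grade 3 (95% interval -0.06 to 0.57), with 7.23 in Grade 3 replicate 1 as the highest value of all 14 conceptuses. IFNAR1 was the probe set with a lower mean, at 3.37, 3.11 and 3.09 in Grade 3 against 3.17 to 3.66 in Grade 1, a difference of -0.17 ± 0.09 (SE, 95% interval -0.37 to 0.03). The remaining 7 probe sets differed by between 0.03 and 0.11. MX1 stood at 3.71 ± 0.14 (SD, n = 3) in Grade 3, against 3.64 ± 0.16 (SD, n = 11) in Grade 1. MX2 stood at 3.51 ± 0.16 (SD, n = 3) in the former, against 3.40 ± 0.12 (SD, n = 11) in the latter. All of these had limma adjusted p = 0.999.

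With Grade 3 set against each length of Grade 1, which uses the same 3 Grade 3 conceptuses in both comparisons, 0 of the 10 probe sets passed limma's adjusted threshold either time (0 percent of all probe sets each). Against long conceptuses, 3 of the 10 had an unadjusted p under 0.05 (9.06 percent of all), and for 2 of them, ISG15 and IRF7 probe set A, the groups did not overlap (7.14 percent of all). ISG15 was 0.30 ± 0.10 (SE, 95% interval 0.09 to 0.50, limma adjusted p = 0.395) above long conceptuses and 0.22 ± 0.10 (SE, 95% interval 0.01 to 0.42, limma adjusted p = 0.449) above short ones. Against short conceptuses it was the 1 probe set with an unadjusted p under 0.05 (10.6 percent of all).

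IRF7 probe set A read 7.95, 8.31 and 7.90 in Grade 3 replicates 1 to 3. Replicate 2 lay above every Grade 1 conceptus, and replicates 1 and 3 lay between the highest long and the lowest short one, with replicate 3 just above the former. The order of the group means was long (7.80), Grade 3 (8.06) and short (8.11), and the single conceptus with no length read 7.89. Grade 3 differed from long by 0.26 ± 0.10 (SE, limma adjusted p = 0.486) and from short by -0.05 ± 0.10 (SE, limma adjusted p = 0.882), so in this order Grade 3 was separated from neither neighbour by a difference past the threshold. IFNAR1 lay -0.24 ± 0.10 (SE, limma adjusted p = 0.540) from long and -0.10 ± 0.10 (SE, limma adjusted p = 0.766) from short conceptuses.

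Sex was labelled for all conceptuses, and the 6 males and 8 females were compared with grade as a covariate. Limma's adjusted threshold was passed by 0 of the 10 probe sets and by 0.362 percent of all, and an unadjusted p under 0.05 was found for 1 of the 10, IRF9 (8.03 percent of all). IRF9 read 5.83, 6.08, 6.13, 6.17, 6.22 and 6.24 in males, in rising order. In females it had a lowest value of 6.26, a median of 6.34 and a highest of 6.60. Every male lay below every female, which held for 0.341 percent of all probe sets, with the highest male just under the lowest female.

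Means of IRF9 were 6.11 ± 0.15 (SD, n = 6) in males and 6.37 ± 0.11 (SD, n = 8) in females. With grade in the fit the difference was -0.29 ± 0.07 (SE, 95% interval -0.44 to -0.13, limma adjusted p = 0.163), and over 20 alternatives it lay between -0.33 and -0.22 with adjusted p between 0.129 and 0.401. Males were lower within each group that holds both sexes, with differences of -0.12 in long (1 male, 4 female), -0.32 in short (2 male, 3 female) and -0.47 in Grade 3 (2 male, 1 female) conceptuses. They were also lower within both title prefixes that hold both sexes, at -0.09 (3 male, 1 female) and -0.43 (1 male, 1 female). The pattern was noticed among 10 probe sets and did not pass the adjustment over all probe sets.

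**Figure D4:**
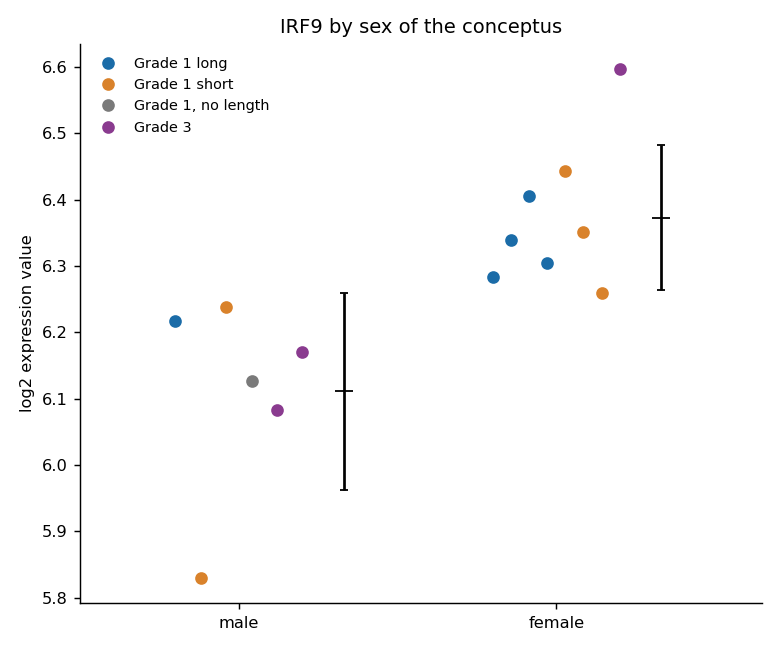
Log2 expression value of IRF9 (vertical axis) in 6 male and 8 female conceptuses, coloured by group, with the mean and SD of each sex beside the points; the axis does not start at 0. The highest male lies at 6.24 and the lowest female at 6.26, and both sexes hold long, short and Grade 3 conceptuses.

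Whether the response genes moved together, and with the interferon tau signal, was asked in 36 pairs of the 8 genes and IFNT2 over the 14 conceptuses. Pearson's r lay between -0.56 and 0.54, and 0 pairs passed the Benjamini-Hochberg threshold in permutation tests (smallest adjusted p = 0.401 for r and 0.530 for rho), while 3 had an unadjusted p under 0.05 for r and 2 for rho. MX1 and MX2, the neighbouring genes, had r = 0.47 and rho = 0.52 (permutation p = 0.0917 and 0.0581), and r = 0.48 without the 2 conceptuses farthest from the median of MX1. MX2 and IFNAR2 had r = 0.54 and rho = 0.54 (permutation p = 0.0465 and 0.048), and r = 0.56 without the 2 farthest. ISG15 and MX2 had r = 0.47 (permutation p = 0.0833) and rho = 0.36 (permutation p = 0.203), but r = 0.01 without the 2 farthest, so over the 14 conceptuses that value of r rested on them.

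The signs toward IFNT2 were negative for 6 of the 8 genes. MX1 and IFNT2 had r = -0.56 and rho = -0.36 (permutation p = 0.0353 and 0.199), and r = -0.28 without the 2 farthest. IRF7 (probe set A) and IFNT2 had r = -0.55 and rho = -0.54 (permutation p = 0.0421 and 0.0474), and r = -0.43 without the 2 farthest. All 14 values of IFNT2 lay within 0.24 log2 units at the top of the scale, so these correlations rest on very small differences in that probe set.

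The same 36 pairs were read again over 13 conceptuses after the means of the groups long, short and Grade 3 were taken out, and again 0 passed the threshold (smallest adjusted permutation p = 0.25 for r and 0.333 for rho). Taking out group means leaves fewer free values than 13 conceptuses, so the unadjusted p-values given here may be too small. IRF7 and IFNT2 then had r = -0.09 (permutation p = 0.765), and MX1 and IFNT2 had r = -0.49 and rho = -0.55 (permutation p = 0.0885 and 0.0554). MX1 and MX2 had r = 0.62 and rho = 0.59 (permutation p = 0.0248 and 0.0361), and r = 0.61 without the 2 farthest. ISG15 and MX2 had r = 0.42 (permutation p = 0.158, adjusted p = 0.438) and r = 0.49 without the 2 farthest. Within groups this r did not rest on such conceptuses, but it did not pass the threshold and no relation was established. STAT2 and IRF9 had r = -0.69 and rho = -0.44 (permutation p = 0.0085 and 0.134), but r = -0.15 without the 2 farthest. MX2 had r = -0.60 with STAT2 (permutation p = 0.0255) and 0.58 with IRF9 (permutation p = 0.0347), ISG15 had r = 0.59 with IRF9 (permutation p = 0.0345), and MX2 and IFNAR2 had r = 0.48 (permutation p = 0.0965).

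For each gene, the genes with the most similar pattern over the 14 conceptuses were sought among 9154 others by Pearson's r, as a description. They were ERI1 (0.90), TOP2B (0.87) and DHX8 (0.86) for ISG15, RECQL4 (0.85), CCL2 (0.78) and STK33 (0.78) for MX1, and MYBPC1 (0.93), TAPBP (0.86) and OSM (0.84) for MX2. For the transducers they were PARP16 (0.84), HOXA4 (0.79) and BCAS1 (0.78) for STAT2, ECH1 (0.89), C4A (0.88) and CWF19L1 (0.85) for IRF9, and CTSV (0.92), ING2 (0.91) and UBXN8 (0.90) for IRF7. For the receptor chains they were AACS (0.82), GRK5 (0.81) and CHAD (0.79) for IFNAR1, and LIX1 (0.88), ACADM (0.87) and MPDZ (0.87) for IFNAR2. None of the 8 response genes was among the 3 most similar of another. All of these values come from the same 14 arrays and share their normalisation.

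The rest of the pathway was read from lists of 149 further gene symbols, of which 80 were measured, each by its brightest probe set. Between long and short conceptuses 1 was higher in long (2.7 percent of all probe sets) and 2 were lower (3.87 percent of all) past the threshold, and 16 of the 80 had an unadjusted p under 0.05, against 22 percent of all probe sets. All 3 belong to antigen presentation, where 12 of 16 listed genes were measured. In the lists of ligands (3 measured), other interferon receptors (2), transducers and restraints (10), other interferon regulatory factors (4), nucleic acid sensors (6), ISG15 conjugation (7) and other interferon-stimulated genes (37), limma called 0 genes by the brightest probe set, and the unadjusted p was under 0.05 for 0, 2, 2, 0, 2, 1 and 5 of them. The median difference of the 37 interferon-stimulated genes was 0.00.

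Within antigen presentation the called genes went both ways. BOLA, a class I histocompatibility gene whose probe set can match several class I genes, read 8.26, 8.30, 9.25, 8.84 and 8.31 in long and 9.71, 9.38, 9.60, 10.08 and 9.38 in short conceptuses. Every long value lay below every short one (5.52 percent of all probe sets). BOLA was lower in long conceptuses, with a difference of -1.03 ± 0.20 (SE, limma adjusted p = 0.0181). PSMB10, a subunit of the immunoproteasome, had means of 6.78 ± 0.18 (SD, n = 5) in long and 7.29 ± 0.22 (SD, n = 5) in short, a difference of -0.51 ± 0.12 (SE, limma adjusted p = 0.0296). B2M, the light chain of class I molecules, was higher in long at 12.28 ± 0.24 against 11.66 ± 0.19 (SD, n = 5 each), a difference of 0.62 ± 0.12 (SE, limma adjusted p = 0.0192) with every long value above every short one (2.9 percent of all probe sets). Its other probe sets gave 0.30 (limma adjusted p = 0.0599) and -0.11 (limma adjusted p = 0.687).

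With 1 conceptus left out, BOLA lost the call in 0 of 10 fits, B2M in 1 (limma adjusted p = 0.0517 without short replicate 4) and PSMB10 in 6 (limma adjusted p up to 0.0745, without long replicate 2). Without short replicates 4 and 5 the limma adjusted p was 0.0938 for BOLA, 0.107 for B2M and 0.174 for PSMB10, and with the conceptus of conflicting labels counted as long it was 0.125, 0.275 and 0.0839. With title prefixes fitted as a block it was 0.105, 0.160 and 0.0869. Over all 19 alternatives the direction was kept, with differences between -1.20 and -0.83 for BOLA, between 0.40 and 0.68 for B2M and between -0.59 and -0.43 for PSMB10. Beside them, CD8A, a T cell gene that was the 1 blood and immune marker called of 16, was lower in long conceptuses, with a difference of -0.84 ± 0.20 (SE, limma adjusted p = 0.0322). Leaving out 1 conceptus ended the CD8A call in 7 of the 10 fits (limma adjusted p up to 0.0771, without long replicate 5). Its limma adjusted p was 0.169 without short replicates 4 and 5, 0.0669 with the conflicting conceptus as long and 0.288 with title prefixes fitted as a block. The T cell genes CD3D and CD2 had differences of 0.10 ± 0.11 and 0.07 ± 0.09 (SE), and CD3E -0.13 ± 0.13 (SE). The macrophage gene AIF1 had 0.82 ± 0.27 (SE, limma adjusted p = 0.0960). CD68, also a macrophage gene, went the other way at -0.55 ± 0.22 (SE, limma adjusted p = 0.160). CD14, CSF1R, ITGAM and TYROBP differed by -0.03, -0.06, -0.03 and -0.16. None of these differences passed the threshold. The mean of the 16 markers lay between 4.59 and 4.78 in long and between 4.63 and 4.84 in short conceptuses, and the part of such cells in these results was not tested. PTPRC, which marks all leukocytes, lay between 2.74 and 3.30 in all conceptuses.

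USP18, named after its values were seen, removes ISG15 from proteins and restrains signalling at IFNAR2. Of its 4 probe sets, 2 were higher in long conceptuses past the threshold (2.7 percent of all probe sets), by 0.56 ± 0.13 (SE, limma adjusted p = 0.0323) and 0.42 ± 0.09 (SE, limma adjusted p = 0.0246). The brightest was not, at 0.92 ± 0.27 (SE, limma adjusted p = 0.0620), nor was the remaining one, at 0.85 ± 0.27 (SE, limma adjusted p = 0.0822). By the brightest, long conceptuses read 7.85 to 8.24 and short replicates 1 to 5 read 7.72, 6.59, 7.91, 7.08 and 6.34, so 3 short conceptuses lay far below the rest and 2 lay near the long ones. The calls of the 2 probe sets were kept in 3 and 4 of 10 fits with 1 conceptus left out. Of 19 alternatives, each of these 2 lost its call in 9, with limma adjusted p up to 0.195 and 0.236. Their differences stayed positive, at 0.47 to 0.64 and 0.30 to 0.48. For the brightest probe set, limma adjusted p was 0.275 once short replicates 4 and 5 were both dropped. Treating the conflicting conceptus as long gave it 0.0552, and blocking on title prefix gave 0.160. It passed the threshold in 2 of the 10 fits that left out 1 conceptus.

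**Figure D5:**
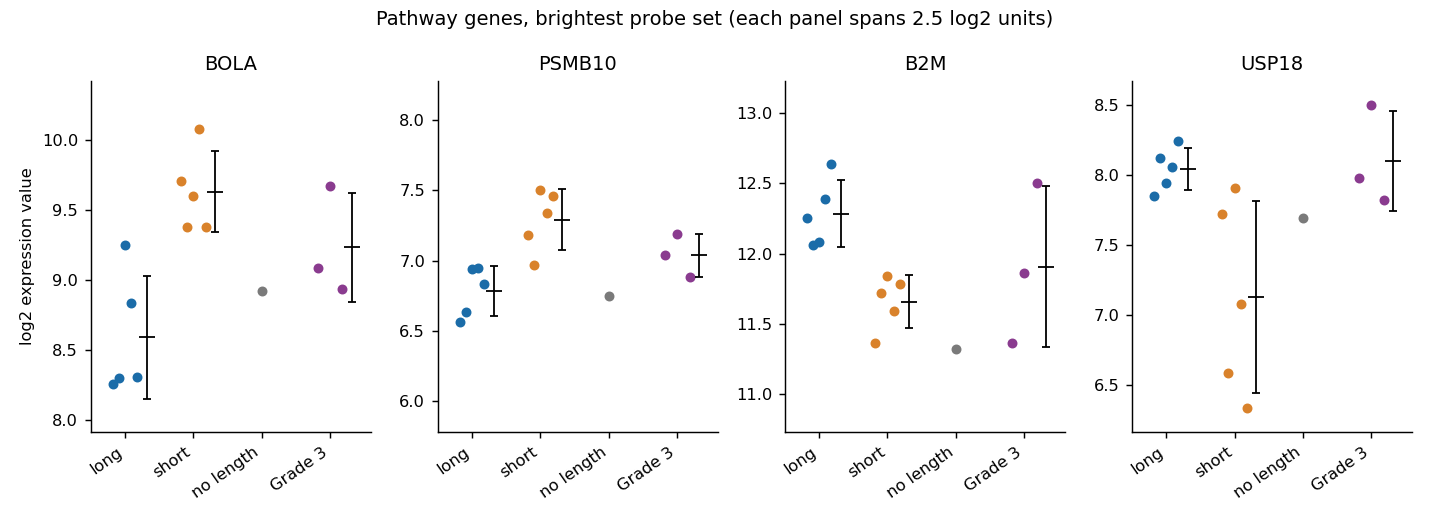
Log2 expression value (vertical axis) of BOLA, PSMB10, B2M and USP18 by their brightest probe set in every conceptus (points) by group, with the mean and SD of each group of 3 or more; every panel spans 2.5 log2 units. Long and short conceptuses do not overlap for BOLA and PSMB10, lower in long (5.52 percent of all probe sets), and B2M, higher in long (2.9 percent). USP18 is spread over 6.34 to 7.91 in short against 7.85 to 8.24 in long conceptuses.

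Grade and sex gave no call in these lists. Of the 80 genes, 0 passed limma's adjusted threshold and 3 had an unadjusted p under 0.05 (5.06 percent of all probe sets) for Grade 3 against Grade 1. They were IFI6 at 0.31 ± 0.11 (SE), TRIM56 at -0.14 ± 0.06 (SE) and PSME2, a proteasome activator subunit, at -0.23 ± 0.09 (SE). For Grade 3 against long and against short conceptuses, and for males against females, limma's adjusted threshold was also passed by 0 of the 80. An unadjusted p under 0.05 was found for 9 of them against long (9.06 percent of all probe sets), 14 against short (10.6 percent) and 8 between the sexes (8.03 percent).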

How the data were processed

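The authors deposited log2 expression values of 24128 probe sets, which per the submitters' processing notes came from Affymetrix Expression Console with RMA; the versions and the set of arrays normalised jointly were not given in the sources used here. This method fits all probes of a set on the log2 scale after quantile normalisation, which compresses differences at low signal and removes a shift shared by all genes. Arrays carry no read depth, and their number limits the precision.

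From these values, 112 control probe sets were left out. Gene symbols came from the platform annotation: a single symbol was found for 13292 probe sets, more than 1 for 86 and none for 10638. All 10 probe sets of the response genes were found by Entrez number in RefSeq's gene table (assembly ARS-UCD2.0), with 0 symbols changed; the table served only for names and neighbours, and no genome, promoter or protein sequence was used here. A gene of the pathway and marker lists is represented by its brightest probe set (highest mean of the 14 arrays).

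Groups came from the labels, and replicates were numbered in accession order. The design text names 4 Grade 1 conceptuses in its comparison of grades without saying which, so all 11 were used. Each comparison was fitted with lmFit and eBayes of limma 3.58.1 (R 4.3.3) over all 24016 probe sets, two-sided, with Benjamini-Hochberg adjustment and a threshold of 0.05. Long and short were compared on their 10 conceptuses, Grade 3 with Grade 1 on all 14, Grade 3 with each length in 1 fit of 13, and the sexes on all 14 with grade as a covariate. Relations used 100000 permutations, two-sided. The fit was tested on simulated data with independent normal values. That test cannot show the effect of conceptuses that share a heifer or donor cow.

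The genes and lists were chosen with earlier results of these data known. Every probe set of the response genes is named, a list gene is named where it passed a threshold or a result turns on it, and the 3 genes most alike each response gene are named. Alternatives changed the normalisation, the filter on dim probe sets (mean under 4), the variance model, the covariate, the length of the conceptus with conflicting labels, the title prefix as a block and the conceptuses used. The fit without short replicates 4 and 5 was chosen after seeing the data.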

Additional observations from a re-analysis of the deposited data

Results flagged for a closer look

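Within groups of 5, the highest or lowest conceptus was set against the range of its group by Dixon's criterion, in 20 groups; chance flags about 1 in 20 groups, and here 3 had a value that stood apart. All 3 came from Grade 1 short replicate 1, the conceptus whose length labels disagree. Its STAT2 value of 7.17 was the highest of the short conceptuses, with the nearest other at 6.56 and the gap at 0.841 of the group's range. Its value of IRF7 probe set B, 6.06, was the lowest, with the nearest other at 6.22 and the gap at 0.847 of the range. Its IFNAR2 value of 3.82 was the lowest, with the nearest other at 4.09 and the gap at 0.749 of the range. The 3 flags share 1 array and are not independent of each other.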

How the results depend on the processing

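The counts of response probe sets past the threshold were 0 in every alternative for Grade 3 against Grade 1, against long and against short conceptuses, for sex, and for the 36 relations. Between long and short conceptuses the count was 1 in the fit reported and 0 with the conceptus of conflicting labels counted as long, with title prefix as a fixed block (2 prefixes inform it) and without short replicates 4 and 5. With title prefix as a random block it was 1, and with 1 conceptus left out it lay between 0 and 1. Over all probe sets the count was 1577, and it was 2403 with sex as a covariate, 492 with the conflicting conceptus as long, 112 with the prefix block, 51 without short replicates 4 and 5, and between 460 and 1697 with 1 conceptus left out. Differences that changed sign were all small and uncalled. For long minus short these were MX1 at 0.0756 with the prefix block, STAT2 at -0.019 without short replicates 4 and 5, IRF9 at -0.0931 with the conflicting conceptus as long and -0.0229 with the prefix block, and IRF7 probe set B at -0.0059 with centred arrays, -0.0033 with quantile normalisation repeated and -0.0507 with the conflicting conceptus as long. With 1 conceptus left out the ranges were -0.0429 to 0.0265 for MX2, -0.0384 to 0.168 for STAT2, -0.0133 to 0.14 for IRF9, -0.0243 to 0.0449 for IRF7 probe set B and -0.106 to 0.0236 for IRF7 probe set C. For Grade 3 minus Grade 1 they were -0.128 to 0.129 for IRF9, -0.0201 to 0.185 for IRF7 probe set A and -0.0253 to 0.113 for IFNAR2, and for Grade 3 minus short -0.183 to 0.0222 for IRF7 probe set A. The causes were not tested. MX1, MX2 and IFNAR1 have no value with dim probe sets left out. No paired analysis was possible because replicate numbers were given in accession order and pair no conceptuses. The fixed and random blocks on title prefix above are the closest fits that were run.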
